A study of Mus musculus with 6 samples.

Results

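Among the H3K27me3 regions that all 4 libraries of the series shared, 1250 autosomal regions carried shorter peaks in Ezh2 mutant than in control spermatogenic cells. They were chosen from the MACS2 peak lists, 1 list per library. Peaks that touched or overlapped were merged across the 4 lists into 54594 autosomal regions, of which 19873 held a peak in every library and 19220 of those were under 10 kb wide. A region was kept when the larger of the mutant lengths covered by peaks was at most 0.67 times the smaller of the control lengths. The covered lengths themselves made the choice, so the difference in MACS2 length is a description of the regions and carries no test.

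Trimethylation of lysine 27 of histone H3 is laid down by Polycomb repressive complex 2, whose catalytic subunit is EZH2 or its paralog EZH1, and marks genes held silent. The complex is recruited mainly to CpG-rich DNA without active transcription, and its EED subunit binds the finished mark, which lets the modification spread into neighbouring nucleosomes. In the male germ line the mark covers many developmental regulator genes and changes as cells pass from spermatogonia through meiosis to spermatids.

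The cells came from testes of mice aged 6 weeks on a mixed background. The control libraries (n = 2) were labelled MvhCre;Ezh2fl/+, so the Cre recombinase was present in them as well and 1 Ezh2 allele was floxed. The mutant libraries (n = 2) were labelled MvhCre;Ezh2fl/fl. The Cre is expressed from the germ cell gene Mvh (Ddx4), so somatic cells keep Ezh2, and the labels put the share of spermatogenic cells at 90%. Separate animals are not stated for the libraries of a genotype, so tests between genotypes measure only the spread between these libraries, which may be technical. A peak list gives the extent of called enrichment and no level, the lists hold no measure of EZH2 or of cell identity, and read depth was unknown. The peak files carry a genotype label beside the library's name, and a control track that differs between genotypes cannot be told apart from the genotype. The MACS2 list of mutant 1 was the longest, with 42363 peaks against 31863 to 32271 in the other lists. Whether fewer cells carried the mark at a region or each cell carried less of it cannot be told apart in such bulk libraries. No mm9 annotation was used here, so regions are given by mm9 coordinate, counted from 1, without gene names.

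In the 1250 regions, MACS2 peaks covered 2.60 Mb in control 1, 2.66 Mb in control 2, 1.15 Mb in mutant 1 and 1.15 Mb in mutant 2. The median region held 1810.5 and 1861 bp of peaks in the controls against 773 and 751.5 bp in the mutants. Both mutants lay below both controls in every member, as the rule demanded, and did so in 38.9% of all regions that could qualify, while they lay above both controls in 13.9%. The members made up 6.50% of the 19220 regions that could have qualified. The same rule with the genotypes exchanged found 609 widening regions, or 3.17%. With 1 library left out, and so fewer conditions to meet, the rule found 2324 shrinking regions without control 1, 1978 without control 2, 3339 without mutant 1 and 2886 without mutant 2. The median ratio of the larger mutant to the smaller control value was 0.56. In 397 members the ratio was at most 0.5, in 82 at most 0.33 and in 35 at most 0.25. The length lost, taken as the smaller control minus the larger mutant value, had a median of 750 bp in the members. It reached at least 1 kb in 376 members, at least 2 kb in 55 and at least 3 kb in 10. Over all 19220 regions, members included, these counts were 523, 63 and 10. The quartiles of the loss in the members were 553 and 1073.5 bp, so large losses were few.

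**Figure D1:**
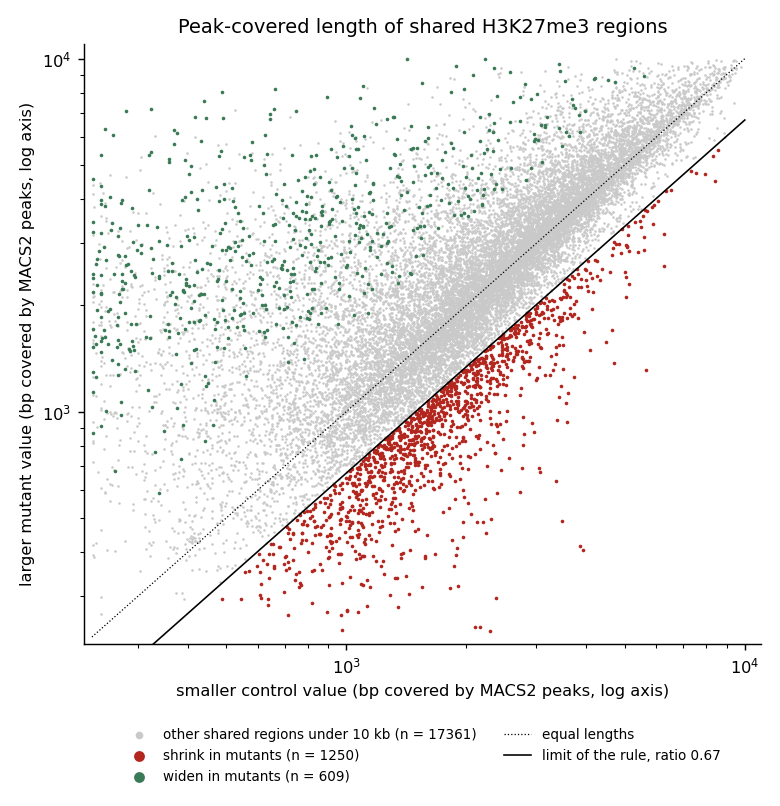
Each point is 1 of 19220 shared autosomal regions under 10 kb, with the smaller control value on the x axis and the larger mutant value on the y axis, both in bp covered by MACS2 peaks on log axes. The 1250 shrinking regions lie on or below the solid line of ratio 0.67 by construction, and the 609 widening regions, for which the rule used the larger control and the smaller mutant value, lie above the dotted line of equal lengths.

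The libraries of a genotype were also set against each other in these regions. The rule used the larger mutant and the smaller control value, so it shaped these figures and they are descriptive. The smaller control value was a median of 0.888 times the larger one, and the smaller mutant value 0.809 times the larger one. Over all regions that could qualify the same ratios were 0.876 and 0.844, so the mutants were less close to each other in the members. Neither mutant was the lower one throughout, since mutant 1 had the shorter peaks in 612 members and mutant 2 in 637. Among the other 17970 regions mutant 1 was the shorter in 7179 and mutant 2 in 10775. Only 19 members had a larger mutant value of 300 bp or less, near the narrowest peak of each list (231 to 243 bp). In the other 1231 members at least 1 mutant peak set was longer than that.

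The shrinking regions were of modest size. The merged regions had a median width of 2084 bp, against 2888 bp over all 19220. Those with 1 to 2 kb of peaks in the smaller control supplied 669 members, which was 10.8% of the 6172 regions of that size. Below 1 kb the share was 4.40% (142 of 3229), at 2 to 5 kb it was 4.80% (405 of 8431) and at 5 to 10 kb 2.45% (34 of 1388). Widening had another size profile, at 12.5% below 1 kb, 2.16% at 1 to 2 kb and 0.830% at 2 to 5 kb. The size classes rest on the control value that the rule also used, and a short region has little room to lose length, so these shares are descriptive.

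The members with the largest losses show what such a region looks like. On chromosome 1 from 189271177 to 189276858, peaks covered 5644 and 5682 bp in the controls against 1310 and 1194 bp in the mutants, and bins called by a second program, hiddenDomains, covered 2024 and 2200 bp against 1400 and 1200 bp. The mutant peaks lay at the left of this region, where mutant 1 started 13 bp inside control 1, the nearer control, and mutant 2 farther inside. At the right, the longer-reaching mutant peak ended 4191 bp inside control 1, again the nearer control. On chromosome 3 from 96064816 to 96074270, peak lengths were 8405 and 9449 bp against 3971 and 4503 bp. Bins there covered 8600 bp in each control and 4000 and 4200 bp in the mutants, and by both callers the mutant calls lay mostly in the left part of the region. On chromosome 17 from 87345152 to 87352930, peaks covered 6435 and 6264 bp in the controls against 1133 and 2583 bp in the mutants. Here the mutants differed from each other by more than the controls did.

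The 5 members with the smallest ratios kept between 238 and 417 bp of peaks in the mutants, and 3 of them kept about the smallest peak the lists hold. On chromosome 6 from 39395924 to 39400116, peaks covered 4193 and 3925 bp in the controls but 272 and 405 bp in the mutants, a ratio of 0.103. Bins covered 4000 and 3677 bp in the controls, 0 bp in mutant 1 and 400 bp in mutant 2. On chromosome 14 from 120674360 to 120678272 the peak lengths were 3884 and 3866 bp against 364 and 417 bp, and only the controls had bins (1600 and 800 bp). These 2 regions are also the fourth and the fifth by length lost. A pair of regions on chromosome 15, from 95595978 to 95598681 and from 92363240 to 92365659, kept 238 and 245 bp and 238 and 246 bp of peaks in the mutants. The controls held 2704 and 2165 bp in the former and 2151 and 2109 bp in the latter, and bins were again absent from both mutants. On chromosome 19 from 21179138 to 21181544 the peak lengths were 2404 and 2293 bp against 238 and 239 bp. The bins of the genotypes overlapped there, at 144 and 600 bp in the controls against 0 and 200 bp in the mutants.

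**Figure D2:**
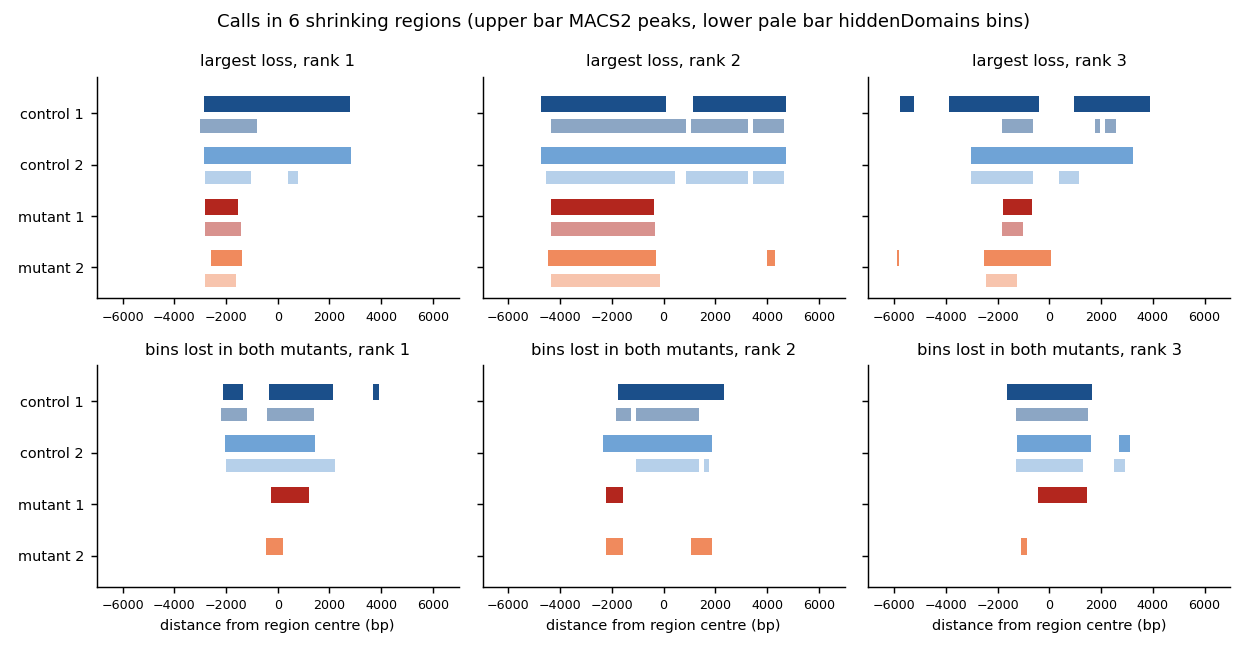
Calls in 6 shrinking regions, as bars along the distance from the region's centre in bp, with 1 row per library, MACS2 peaks above and hiddenDomains bins below in a paler shade. The upper row holds the 3 regions with the largest loss of peak length, and the lower row the 3 with the most bins in the controls among those with none in either mutant.

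The bins of hiddenDomains were then read in the same regions. That caller is a hidden Markov model for broad marks and works in 200-bp bins. Its bins come from the same reads and the same contrast as the rule, so they are a second reading of the same libraries and are given without a test. They covered 1.978 and 1.998 Mb of the 1250 regions in the control libraries and 0.768 and 0.743 Mb in the mutant libraries, with medians of 1400 bp in each control and 400 bp in each mutant. Both mutants lay below both controls in 1074 members (85.9%), while the same held for 41.3% of all regions that could qualify. In 173 members the libraries overlapped or tied, and in 3 both mutants lay above both controls, a direction that 7.74% of all qualifying regions showed. The stricter contrast, with a ratio of at most 0.67 in bins, was met by 828 members (66.2%) against a background of 13.5%. Within each size class the picture was similar. Bins of both mutants were lower in 86.2% of the members with 1 to 2 kb of control peaks and in 44.3% of the other regions of that size. Below 1 kb the shares were 78.2% and 20.9%, and at 2 to 5 kb 87.4% and 40.4%.

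**Figure D3:**
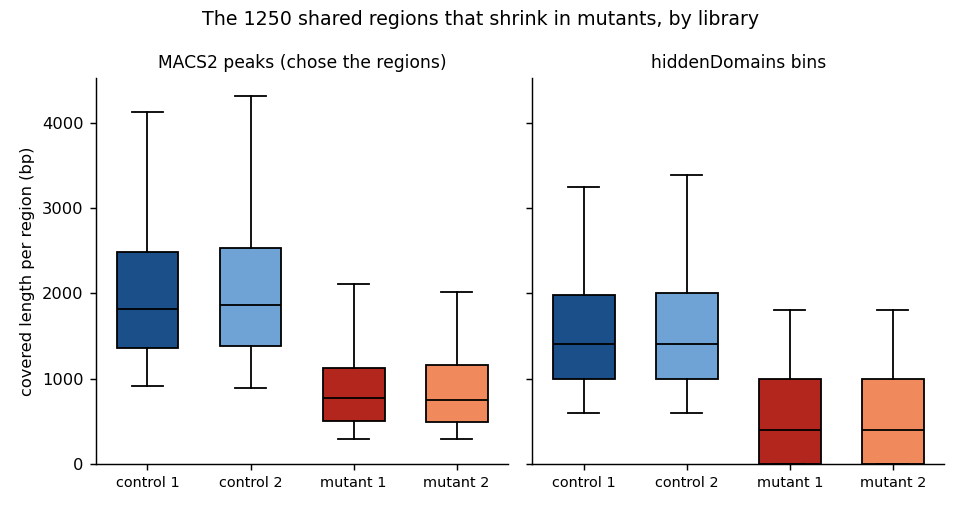
Covered length per region in bp for the 1250 shrinking regions, by MACS2 peaks (left) and hiddenDomains bins (right), in 2 control and 2 mutant libraries. Boxes span the quartiles with the median as a line and whiskers run from the 5th to the 95th percentile; the median of bins is 1400 bp in each control and 400 bp in each mutant.

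Complete loss of bins was frequent. In 260 members (20.8%) both controls had bins and neither mutant did, against 3.98% of all qualifying regions. In another 290 members (23.2%) bins were called in both controls and 1 mutant, against 7.46% of all qualifying regions. The mutant with bins was mutant 1 in 159 members and mutant 2 in 131, and in the other regions 794 and 350. Bins were present in all 4 libraries in 646 members (51.7%), against 76.6% of all qualifying regions. In these 646 members the larger mutant value was a median of 0.67 times the smaller control value. For the 14078 other regions with bins in all 4 libraries this median was 1. Bins were called in no library in 6 members (0.48%), against 1.49% of all qualifying regions. The members that lost all bins were shorter in the controls, with median peak lengths of 1470.5 and 1558.5 bp against 2173 and 2161 bp where bins were kept in all libraries. Their mutant peaks were shorter as well, at 497 and 520.5 bp against 1002.5 and 1015 bp. Across the 646 members with bins in all libraries, the ratios of the callers had a Spearman rho of 0.286, over regions of the same libraries. The rule cut the peak ratio off at 0.67 and bins come in 200-bp steps, so this value does not measure how well the callers agree.

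The members with the most control bins and none in either mutant still held peaks of 239 to 3179 bp in the mutants. On chromosome 10 from 120306072 to 120310330, bins covered 2729 and 4130 bp in the controls and none in the mutants, while peaks covered 3265 and 3497 bp against 1442 and 643 bp. On chromosome 4 from 58591512 to 58596183, bins covered 3000 and 2600 bp in the controls and peaks covered 4082 and 4205 bp against 641 and 1493 bp. On chromosome 5 from 118108265 to 118111518, bins covered 2800 and 2600 bp in the controls. Peaks there were 3254 and 2886 bp in the controls, 1907 bp in mutant 1 and 239 bp in mutant 2, so that the mutants stood far apart. On chromosome 9 from 120798957 to 120805878 bins covered 2600 and 3200 bp, and on chromosome 1 from 39926384 to 39929281 2400 and 2600 bp, in the controls alone. Peak lengths on chromosome 9 were 6322 and 6255 bp against 3179 and 1222 bp. Those on chromosome 1 were 2898 and 2523 bp against 289 and 943 bp.

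A total of 3 members went against the rule in their bins. On chromosome 12 from 114497103 to 114501321, peaks covered 3074 and 4174 bp in the controls against 2045 and 1490 bp in the mutants, but bins were called only in the mutants, over 800 and 600 bp. On chromosome 15 from 79622296 to 79623805, bins covered 600 bp in each mutant and none in the controls, while peaks covered 1033 and 1395 bp in the controls against 379 and 539 bp in the mutants. On chromosome 13 from 53628390 to 53630894, bins covered 800 and 600 bp in the controls against 1200 and 1000 bp in the mutants, while the peak lengths were 2505 and 2169 bp against 1047 and 1178 bp. In these regions the callers gave opposite directions.

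The shape of the retained part did not enter the rule, although shorter mutant peaks leave less room outside the control peaks and must stop short at an end or a gap. In 1163 members (93.0%) each library held a single peak, close to the 90.04% of the other regions. Several peaks in both mutants were found in 24 members and in 262 of the other 17970 regions. Of the base pairs under mutant peaks, 97.0% in mutant 1 and 97.2% in mutant 2 lay where both controls had a peak, and 0.636% and 0.708% lay outside any control peak. In the other regions 11.7% and 7.83% lay outside control peaks. The mutant peaks shared at least 1 bp with each other in 1224 members (97.9%) and were apart in 26. In the other regions they shared in 17918 (99.7%) and were apart in 52. Their overlap, as shared over combined base pairs, had a median of 0.671, below that of the controls in the same regions (0.827) and of the mutants in the other regions (0.788).

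Shortening was often uneven between the ends. An end was counted as drawn in where both mutants stopped at least 200 bp inside both controls. By this count 802 members (64.2%) were drawn in at 1 end, 310 (24.8%) at both ends and 138 (11.04%) at neither. Left and right were about equally frequent among the former, with 386 and 416 members. In the other regions 16.6% were drawn in at 1 end and 0.819% at both. Over the 1233 members with any withdrawal, the end that moved farther had moved a median of 502 bp and the opposite end 81 bp. At least 90% of the withdrawal was at a single end in 530 of them (43.0%). With a minimum of 100 bp, chosen after seeing the data, both ends were drawn in at 564 members (45.1%), and with 500 bp at 43 (3.44%), so the split between 1 and both ends depends on this minimum.

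The position of the retained part was then read along the control peak. Shorter peaks spread evenly over the places open to them inside a longer span would also cover its middle more often than its ends, so the order of middle and ends is given as a description. At the midpoint of the span common to both controls, 73.8% of members were under a peak in mutant 1 and 71.9% in mutant 2. Near the ends, at 5% and 95% of the span, 17.9% and 17.0% were covered in mutant 1 and 18.4% and 16.0% in mutant 2. In the other regions the mutants covered 96.4% and 93.3% of midpoints and between 65.7% and 72.6% of positions near the ends. Bins showed the same order, with 88.8% and 89.2% of midpoints covered in the controls against 45.7% and 42.8% in the mutants. Near the left end bins covered 66.6% and 66.5% of members in the controls against 12.5% and 10.6% in the mutants. The midpoint of the retained part itself lay at a median of 0.49 of the control span, with quartiles at 0.37 and 0.62.

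**Figure D4:**
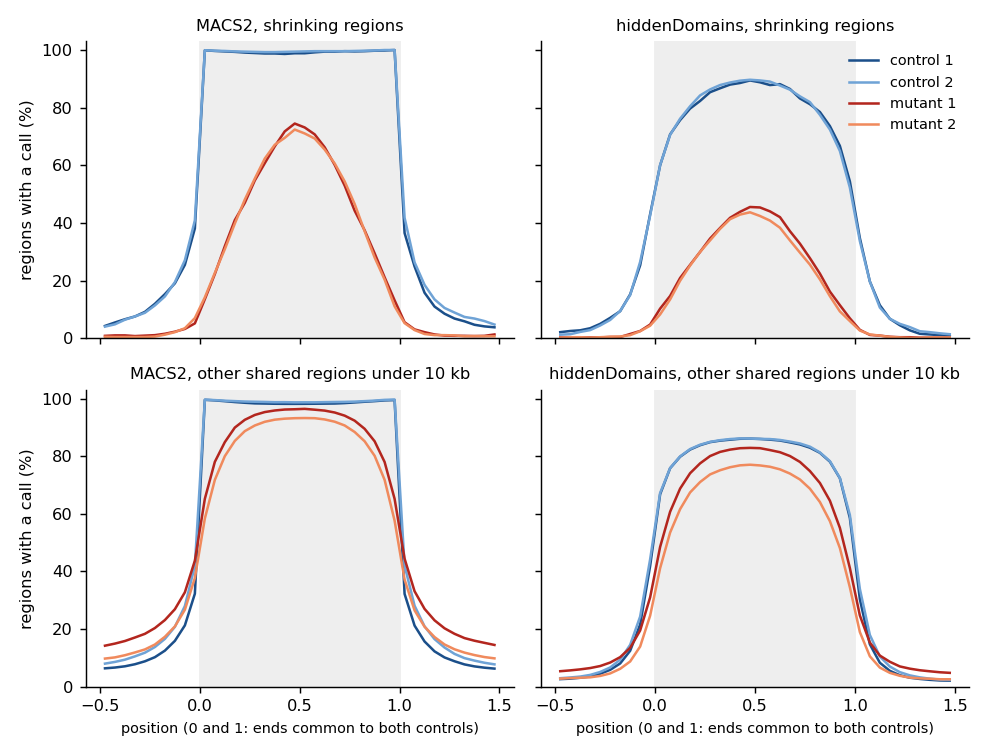
Percent of regions with a call at each position, where 0 and 1 are the ends common to both controls (grey), for MACS2 peaks (left) and hiddenDomains bins (right) in 4 libraries. In the 1250 shrinking regions (upper row) the mutant lines peak at the midpoint, at 73.8% and 71.9% for MACS2, and fall steeply to the ends, while in the other 17970 regions (lower row; 17827 with overlapping control spans) they stay nearer to the controls.

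The score that hiddenDomains attaches to a bin, which takes 4 values and has no stated meaning in the labels or headers, was also set apart. Bins of the highest score made up 90.7% and 90.2% of the bin-covered length of the members in the controls against 84.3% and 84.7% in the mutants. Over all qualifying regions the shares were 94.2% and 94.3% against 92.5% and 92.8%. The retained bins of the members thus carried the top score less often in both mutants than in both controls.

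The surroundings of the members were compared next, over 50 kb on each side with the region itself left out. MACS2 peaks covered on average 5.65 and 5.93 kb there in the controls, 5.79 kb in mutant 1 and 4.86 kb in mutant 2. Mutant 1 lay between the controls, and the mean difference of -0.469 kb became -0.0031 kb without mutant 2. Around all qualifying regions the values were 6.95 and 7.21 kb in the controls, 8.93 kb in mutant 1 and 6.97 kb in mutant 2. Mutant 1 thus had the most coverage around shared regions in general but not around the members. Bins covered 4.68 and 4.74 kb around the members in the controls against 3.95 and 3.60 kb in the mutants, a change of -19.8%, against -7.73% around all qualifying regions. Surroundings of nearby members overlap and may hold other members, so the values are not independent of each other.

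The nearest qualifying neighbour of a member was itself a member in 123 cases (9.84%), and the share was 6.22% for the other regions. Where the neighbour was no member, both mutants lay below both controls in its bins in 47.5% of 1127 cases, against 37.9% of 16853 neighbours of other regions. In peaks both mutants lay below both controls in 44.2% of the members' neighbours and in 33.9% of the neighbours of other regions. The peaks of the members' neighbours had medians of 2377 and 2427 bp in the controls against 2210 and 2054 bp in the mutants. The nearest neighbour widened in 1.36% of members and in 3.38% of the other regions.

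Members lay farther from the broad H3K27me3 domains than other shared regions did. The 653 shared autosomal regions of 10 kb or more were a median of 1477 kb away from members and 926 kb away from the other regions. Of the 1613 regions within 50 kb of a broad domain 3.97% were members, of those at 50 to 200 kb 5.05%, of those at 200 to 1000 kb 5.41%, and of the 9408 regions at 1000 kb or more 7.98%. Widening regions had the opposite order, at 7.07%, 4.75%, 3.39% and 1.97%. The median smaller control length hardly changed between these classes, from 2007 to 2125 bp. Among regions with 1 to 2 kb of control peaks the share of members went from 5.07% through 8.55% and 8.80% to 13.4%. The order from the nearest to the farthest class was the same with each library left out in turn, from 11.3% to 17.5% without mutant 1 and from 7.44% to 14.4% without mutant 2. Bins of both mutants were below those of both controls in 28.3% of all regions within 50 kb of a broad domain and in 46.1% of those at 1000 kb or more. These shares describe positions along the genome that share libraries, and no test was made.

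Members were found on every autosome and in 818 of the 2198 windows of 1 Mb that held a qualifying region. Chromosome 10 had the highest share, with 112 of 1122 regions (9.98%), and chromosome 4 the lowest, with 59 of 1441 (4.09%). Chromosomes 14 (8.18%), 13 (8.05%) and 5 (7.89%) followed chromosome 10. On chromosome 4 widening regions outnumbered members, at 86 against 59, and on chromosome 2 both counts were 75. The share on chromosome 10 was 18.6% without mutant 1 and 17.4% without mutant 2, and that on chromosome 4 12.1% and 8.19%. Chromosome 10 stayed the highest with each library left out, whereas chromosome 7 was the lowest without mutant 1 (11.3%) and without control 1 (8.35%, against 8.68% on chromosome 4). Bins of both mutants were below both controls in 98 of the 112 members on chromosome 10 and in 47 of the 59 on chromosome 4, and in 50.6% and 32.1% of all qualifying regions there. Across chromosomes this share of members ranged from 77.6% on chromosome 12 (45 of 58) to 97.7% on chromosome 16 (42 of 43). Among all qualifying regions of these chromosomes the shares were 40.9% and 44.2%. With so few members per chromosome the range is descriptive.

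**Figure D5:**
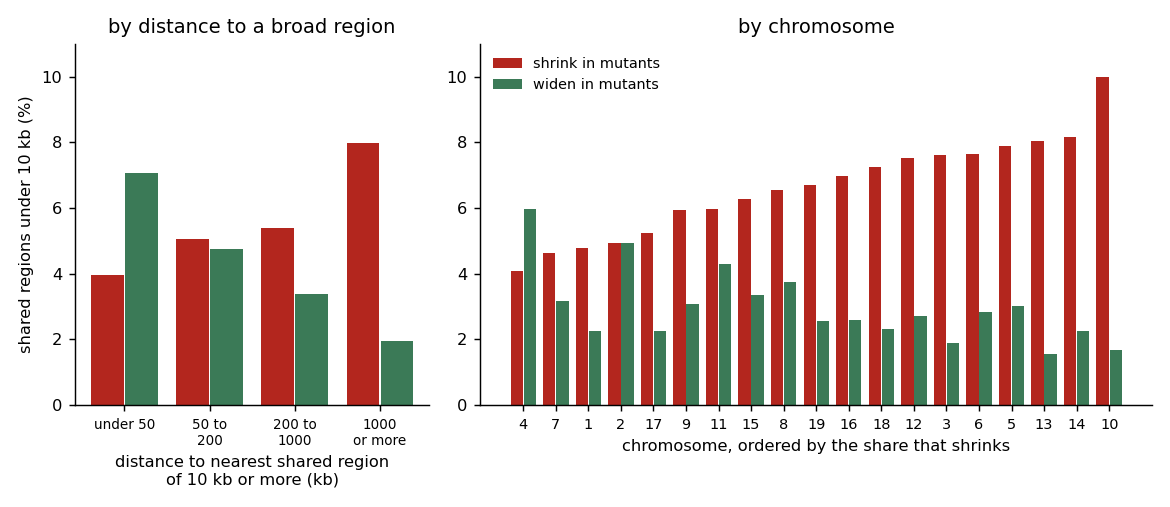
Percent of shared autosomal regions under 10 kb that shrink or widen in mutants, by distance to the nearest shared region of 10 kb or more in kb (left) and by chromosome (right). The share that shrinks is 3.97% near broad regions and 7.98% far from them, and ranges from 4.09% on chromosome 4 to 9.98% on chromosome 10.

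By count, the 1-Mb windows with the most members lay on chromosome 10. By share of qualifying regions, a window on chromosome 3 from 10000001 to 11000000 stood higher, with 4 members among 8. On chromosome 10, the window from 98000001 to 99000000 held 7 members among 20 qualifying regions and no widening region. That from 120000001 to 121000000 held 7 among 34 and no widening region either. In the former, the longest control peaks were on the member from 98204520 to 98208343, at 3680 and 3581 bp against 932 and 910 bp in the mutants, with bins of 3481 and 1600 bp against 600 and 600 bp. The member from 98936676 to 98939081 had 2232 and 1794 bp of peaks in the controls, 238 bp in mutant 1 and 1067 bp in mutant 2. The member from 98731970 to 98735070 held 3079 and 2691 bp in the controls against 1764 and 1162 bp. Its neighbour from 98741841 to 98743014 held 1064 and 1046 bp against 629 and 408 bp and had bins in the controls only, over 1160 and 960 bp. The other 3, from 98080586 to 98082642, from 98547139 to 98548434 and from 98815680 to 98817292, had ratios of 0.60 to 0.62. In each of the 7, bins of both mutants covered less than those of both controls. The same held for 87.5% of all members on chromosome 10 and for 50.6% of all qualifying regions there.

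The limit of 0.67 cuts through a continuous distribution. Just inside it, on chromosome 8 from 127611175 to 127616546, peaks covered 5047 and 4906 bp in the controls against 3287 and 2637 bp in the mutants. The bins of that region did not separate the genotypes, at 2600 and 3400 bp against 3400 and 2200 bp. Also just inside were regions on chromosome 14 from 106888333 to 106891039 (2473 and 2707 bp against 1656 and 1448 bp) and on chromosome 10 from 102148363 to 102150177 (1519 and 1815 bp against 1017 and 935 bp). Just outside it, on chromosome 17 from 64832804 to 64834357, they covered 1554 and 1273 bp in the controls against 853 and 762 bp in the mutants. The next outside were on chromosome 2 from 49229248 to 49231328 (1902 and 1816 bp against 1217 and 1041 bp) and on chromosome 3 from 145947049 to 145948641 (1310 and 1537 bp against 878 and 769 bp).

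The set from which the members came was also compared as a whole, since those 19220 regions were not chosen for a change. Bins covered 41.8 and 42.7 Mb of them in the control libraries and 38.8 and 35.6 Mb of them in the mutants. The means were 42.2 ± 0.610 Mb (SD, n = 2) and 37.2 ± 2.26 Mb (SD, n = 2), a difference of -5.04 Mb or -11.9%. Both mutants were below both controls, with a two-sided exact permutation p of 0.333, below which no such test of 2 against 2 can go. Without the members the difference was -3.81 Mb (exact permutation p = 0.333). By MACS2 peaks the control libraries had 49.6 and 51.6 Mb and the mutant libraries 50.9 and 46.3 Mb, so that the genotypes overlapped (difference -1.99 Mb, exact permutation p = 0.667, two-sided). The complete hiddenDomains lists, not limited to these regions, came to 53.4 Mb for control 1 and 54.3 Mb for control 2. Mutant 1 had 50.9 Mb of bins in its complete list and mutant 2 had 44.6 Mb. Both complete mutant lists of bins were thus the shorter ones as well. This did not hold for the complete MACS2 lists, which covered 67.3 and 69.8 Mb in the controls. Mutant 1 had the longest of these, at 82.0 Mb, and mutant 2 the shortest, at 64.4 Mb. Whether the bin difference was particular to the qualifying regions was not tested.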

How the data were processed

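The authors deposited, for each H3K27me3 library, a list of MACS2 peaks and a list of enriched 200-bp bins. Both give coordinates in base pairs in the mm9 build, and the bins carry a deposited display score with 4 values, whose meaning no label or header states. The peak caller is named per the file headers, the bin caller hiddenDomains per the file names, and Bowtie, SAMtools and bedtools per the submitters' processing notes. For versions, thresholds, control tracks and read depth, nothing is given in the sources used here. A deeper library yields more and wider calls, so lengths are not normalised for depth. The MACS2 lists held 31863 to 42363 peaks, the most in mutant 1, and the bin lists 223219 to 271287 bins, the fewest in mutant 2. The 2 input samples were not analysed here.

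Regions, covered base pairs and overlaps (at least 1 bp) were computed with NumPy 2.4.6 under Python 3.11.15. Totals per library were compared by an exact permutation test over libraries. On simulated data all 61 interval checks held, and the rule found 200 of 200 planted shrinking and 200 of 200 planted widening regions, with 0 calls among 600 unchanged ones. The planted changes lay well past the limit, and the simulated libraries of a genotype differed less than the real ones typically did. These counts therefore check the code and give no rate of false calls for the real lists. The members and the quantities described were chosen with earlier results of these data known. Regions named are the 5 with the largest loss, the 5 with the smallest ratio, the 5 with most control bins and no mutant bins, those whose bins go against the rule, the 3 on each side of the limit and all in the 1-Mb window with the most members (of 2 windows with 7, the one with the lower start).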

Additional observations from a re-analysis of the deposited data

How the results depend on the processing

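The number of shrinking regions depended on the limit and on requiring both libraries of each genotype. It was 397 at a ratio of 0.5 and 1938 at 0.75, and the number of widening regions was 272 at 0.5. Leaving out 1 library gave between 1978 and 3339 shrinking regions. Widening regions then numbered 1537 without control 1, 1781 without control 2, 884 without mutant 1 and 1939 without mutant 2. With an equal number of the widest peaks from each list 752 shrank and 592 widened, and with peaks of at least 500 bp 797 shrank and 394 widened. In each of these settings shrinking regions outnumbered widening ones. With hiddenDomains bins for the length 2587 regions shrank, of which 828 were among the 1250, and 616 widened. With totals scaled to be equal 1466 regions shrank, of which 1110 were among the 1250, and 547 widened. Other width limits, merging within 500 bp and the X chromosome (1 shrinking region of 48) moved the counts by less than 1.5 times.

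Between libraries of equal replicate number, deviations from the genotype mean correlated at 0.00880 for peaks and 0.0330 for bins over 19220 regions. With 2 libraries per genotype these values cannot settle whether equal numbers were handled together, which the labels do not state. With the replicate block, each mutant against the control of the same number, 1643 regions shrank, 883 widened and 1115 members were lower in bins, as were 47.2% of all qualifying regions. The bin difference over all qualifying regions was -5.04 Mb under the block as well, since pairing cannot change the mean difference. Its exact sign-flip p was 0.5, below which no two-sided test of this kind on 2 pairs can go.

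The count of members lower in bins ranged from 1111 to 1145 with 1 library left out, where the share of all qualifying regions was 49.9% to 55.5% in place of 41.3%, was 1029 with bins scaled to equal totals (background 27.01%) and was 557 of the 646 with bins in all libraries, a smaller set by construction. The share drawn in at both ends was 45.1% at 100 bp and 3.44% at 500 bp. The bin difference around members was -0.420 kb over 20 kb and -1.56 kb over 100 kb on each side, windows of another size by construction. With 1 library left out it ranged from -1.11 to -0.758 kb and for peaks from -0.935 to -0.0031 kb. The bin difference over all qualifying regions ranged from -6.64 to -3.45 Mb. For the 26 named members the larger mutant value minus the smaller control value was negative in 151 of 156 alternatives. Leaving out a library cannot turn this difference positive in a member, and scaling reuses the lengths that made the choice. The count is therefore no measure of stability. All 5 positive differences were in bins. There the difference was 800 bp on chromosome 12 from 114497103 and on chromosome 8 from 127611175. It was 600 bp on chromosome 15 from 79622296 and on chromosome 13 from 53628390, and 56 bp on chromosome 19 from 21179138. The cause was not tested. Unknown depth limits every length given.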
